A study of Homo sapiens with 6 samples.

Results

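Transcripts of 10 genes of the BMP and TGF-beta pathways were followed in SW480 cells in which MORC2, an ATPase that acts on chromatin, had been depleted. The genes were BMP2, BMP4, BMP7, TGFB1, TGFB2, SMAD6, SMAD7, ID1, ID2 and ID3, taken by symbol from a count table of 56303 genes. SW480 is a line from a human colorectal adenocarcinoma. One group carried a nonsilencing short hairpin RNA (shCtrl) and the other a hairpin against MORC2 (shMORC2), with 3 libraries of polyadenylated RNA in each. Both hairpins were delivered by lentivirus, and per the study's methods the cells were stable clonal lines selected with puromycin. All cells grew in medium with fetal bovine serum, and no label names an added BMP or TGF-beta. The labels give the genotype as WT for shCtrl and as MORC2 knockdown for shMORC2, and they name no second hairpin. Effects of the hairpin, of a clonal line and of MORC2 itself cannot be told apart in these groups. The study's methods describe replicate experiments without saying whether they were separate cultures, so p-values measure the spread between these libraries, which may be technical.

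BMPs and TGF-betas are secreted dimers of a shared protein family that bind pairs of serine/threonine kinase receptors at the cell surface. The receptors phosphorylate SMAD proteins, SMAD1, SMAD5 and SMAD9 downstream of BMPs and SMAD2 and SMAD3 downstream of TGF-betas and activins. These join SMAD4 and act on target genes in the nucleus. SMAD6 and SMAD7 are inhibitory SMADs that are themselves induced by the pathway, SMAD6 acting mainly on BMP signals and SMAD7 on both branches. ID1, ID2 and ID3 encode inhibitors of DNA binding, which sequester basic helix-loop-helix transcription factors and are classical BMP targets. In the intestine BMP signals are highest towards the differentiated end of the crypt axis, and members of the TGF-beta branch are often mutated in colorectal cancer.

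Of the 10 genes, 9 had enough counts to be tested, and 5 of these 9 (55.6%) differed between the groups by the quasi-likelihood test of edgeR (adjusted p under 0.05). BMP4 and ID2 were higher in shMORC2, and BMP7, SMAD6 and ID1 were lower. TGFB1, TGFB2, SMAD7 and ID3 did not pass the test, and BMP2 was close to absent in all libraries. Differences were common in these libraries: 8301 of 21005 genes tested passed (39.5%), with 19.9% of genes called higher in shMORC2 and 19.6% called lower. The median log2 fold change (shMORC2 minus shCtrl) of the 9 genes was 0.11, against -0.0056 over all genes tested. The median size of the change, regardless of sign, was 0.40 for the 9 genes and 0.31 over all genes. The 2 called higher and 3 called lower are counts to be read against that background, and no test of the list as a whole was made.

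The 6 libraries held between 42092664 and 43434425 counts. Correlations of log2 CPM (counts scaled to a common library size) were 0.994 to 0.996 within groups and 0.978 to 0.984 between them. MORC2 (chr22:30925130-30968298, minus strand, GRCh38) stood at 46.1, 46.4 and 48.8 CPM in shCtrl and at 35.03, 29.3 and 27.2 CPM in shMORC2. All 3 shMORC2 libraries were below all shCtrl libraries, with 64.7% of the control level left (log2 fold change -0.63, SE 0.10, adjusted p in edgeR 0.000216). MORC2-AS1 on the opposite strand shares 25.8% of the exonic bases of MORC2, and the strand setting of the counting is not given in the sources used here. All 7 markers of colorectal epithelium were expressed, with a summed level of 18370 to 23760 CPM in shCtrl and 17710 to 24060 CPM in shMORC2 that was mostly KRT8 and KRT18. Of the other 5, CEACAM5 fell from a mean of 15.4 to 7.25 CPM (log2 fold change -1.08, adjusted p in edgeR 0.00265) and CDX2 rose from 15.3 to 21.2 CPM with overlapping groups (log2 fold change 0.47, adjusted p in edgeR 0.0158). The summed level of 6 fibroblast markers was 20.01 to 20.9 CPM in shCtrl and 22.7 to 24.96 CPM in shMORC2, and 3 of them, COL1A2, COL3A1 and DCN, had at most 10 counts in every library. The counts of COL3A1 were 4, 9 and 8 in shCtrl against 0 throughout shMORC2, and those of COL1A2 were 10, 8 and 4 against 0, 0 and 4, both untested and opposite to the sum. For 4 endothelial markers it was 15.7 to 19.6 and 20.6 to 22.3 CPM, with CDH5 and KDR at 10 counts or fewer throughout. For 5 leukocyte markers it was 0.243 to 0.684 and 0.841 to 0.879 CPM, with 4 of them at 10 counts or fewer. The last 3 sums were higher in every shMORC2 library than in any shCtrl library, and their part in the results below was not tested. Most of the fibroblast sum came from COL1A1 and LUM, both higher in every shMORC2 library than in any shCtrl library. Neither was called (log2 fold changes 0.16 and 0.29, adjusted p in edgeR 0.287 and 0.0778). Most of the endothelial sum came from PECAM1, whose own groups overlapped. The endothelial marker VWF rose from a mean of 2.21 to 3.21 CPM without overlap and was called (log2 fold change 0.54, adjusted p in edgeR 0.0238). CD14, the only leukocyte marker above 10 counts in any library, had 6 to 26 counts with overlapping groups. In bulk RNA a change in the number of cells that express a gene and a change in RNA per cell cannot be told apart.

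Promoter windows of 4 genes are shown because their transcripts passed the test in either direction and because SMAD6, ID1 and ID2 are induced through SMAD binding to DNA. BMP7 also passed, but neither it nor BMP2 had a window. RefSeq windows (GRCh38.p14) run from 250 bases before to 50 bases after an annotated start, and 8 of the 10 genes matched with 12 windows in all. They were searched on both strands for GTCTAGAC, the palindromic SMAD binding element, for the GC-rich SMAD site GGCGCC and its variant GGAGCC, and for the short SMAD box GTCT. GTCTAGAC contains GTCT on either strand, so those matches overlap. The window of SMAD6 lies at chr15:66701986-66702285 on the plus strand, that of ID1 at chr20:31605039-31605338 on the plus strand, that of ID2 at chr2:8681806-8682105 on the plus strand, and the window of BMP4 with the most distal start at chr14:53955001-53955300 on the minus strand. Capitals mark GTCTAGAC, GGCGCC and GGAGCC on either strand.
SMAD6: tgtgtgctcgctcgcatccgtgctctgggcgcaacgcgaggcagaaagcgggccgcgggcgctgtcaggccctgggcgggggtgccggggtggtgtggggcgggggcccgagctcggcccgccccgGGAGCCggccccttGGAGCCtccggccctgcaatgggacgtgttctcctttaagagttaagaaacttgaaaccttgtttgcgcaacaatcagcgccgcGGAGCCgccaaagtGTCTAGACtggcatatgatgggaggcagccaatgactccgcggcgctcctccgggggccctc
ID1: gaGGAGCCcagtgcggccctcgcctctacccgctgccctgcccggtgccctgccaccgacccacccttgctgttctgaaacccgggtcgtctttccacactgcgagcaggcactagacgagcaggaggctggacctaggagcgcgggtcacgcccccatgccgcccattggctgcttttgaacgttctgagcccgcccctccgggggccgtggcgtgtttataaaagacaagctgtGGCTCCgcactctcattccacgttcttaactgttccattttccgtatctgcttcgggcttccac
ID2: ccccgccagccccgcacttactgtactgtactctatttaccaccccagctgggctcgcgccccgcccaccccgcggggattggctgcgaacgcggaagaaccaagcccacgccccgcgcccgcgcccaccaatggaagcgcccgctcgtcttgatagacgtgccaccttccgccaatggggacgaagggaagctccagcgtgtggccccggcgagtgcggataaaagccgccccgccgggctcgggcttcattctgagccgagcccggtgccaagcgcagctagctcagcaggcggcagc
BMP4: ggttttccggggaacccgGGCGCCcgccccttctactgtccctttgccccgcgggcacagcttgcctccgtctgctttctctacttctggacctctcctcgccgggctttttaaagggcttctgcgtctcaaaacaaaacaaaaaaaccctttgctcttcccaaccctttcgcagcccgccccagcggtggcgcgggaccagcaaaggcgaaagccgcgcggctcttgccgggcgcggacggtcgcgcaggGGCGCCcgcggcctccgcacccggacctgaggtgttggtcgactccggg

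The SMAD6 window held GTCTAGAC from position -12 to -5 relative to the annotated start and GGAGCC at 3 places. It was the only one of the 12 windows with the palindrome, which 0.202% of 35116 RefSeq promoter windows of the same length hold. The ID1 window held GGAGCC at 2 places, from -248 to -243 and from -14 to -9, the latter on the opposite strand. GGAGCC occurs in 36.0% of all windows and in 6 of the 12 windows searched here, which belong to 6 of the 8 matched genes. The ID2 window held none of the 3 longer motifs, and its 2 matches were to GTCT, which 84.0% of all windows hold. The BMP4 window held GGCGCC at 2 places, from -232 to -227 and from 2 to 7. It was the only one of the 12 windows with GGCGCC. The other 2 BMP4 windows, not shown, held no GGCGCC, but GGAGCC was found in BMP4 window 3 from -6 to -1. GGCGCC occurs in 19.2% of all windows. These matches describe the letters in the windows, and no binding was measured. Sequence outside the windows was not searched, so a motif missing from a window may still occur elsewhere near the gene. The ID2 and BMP4 windows shown lie inside the spans counted for these genes, chr2:8678845-8684453 and chr14:53949736-53958761.

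**Figure D1:**
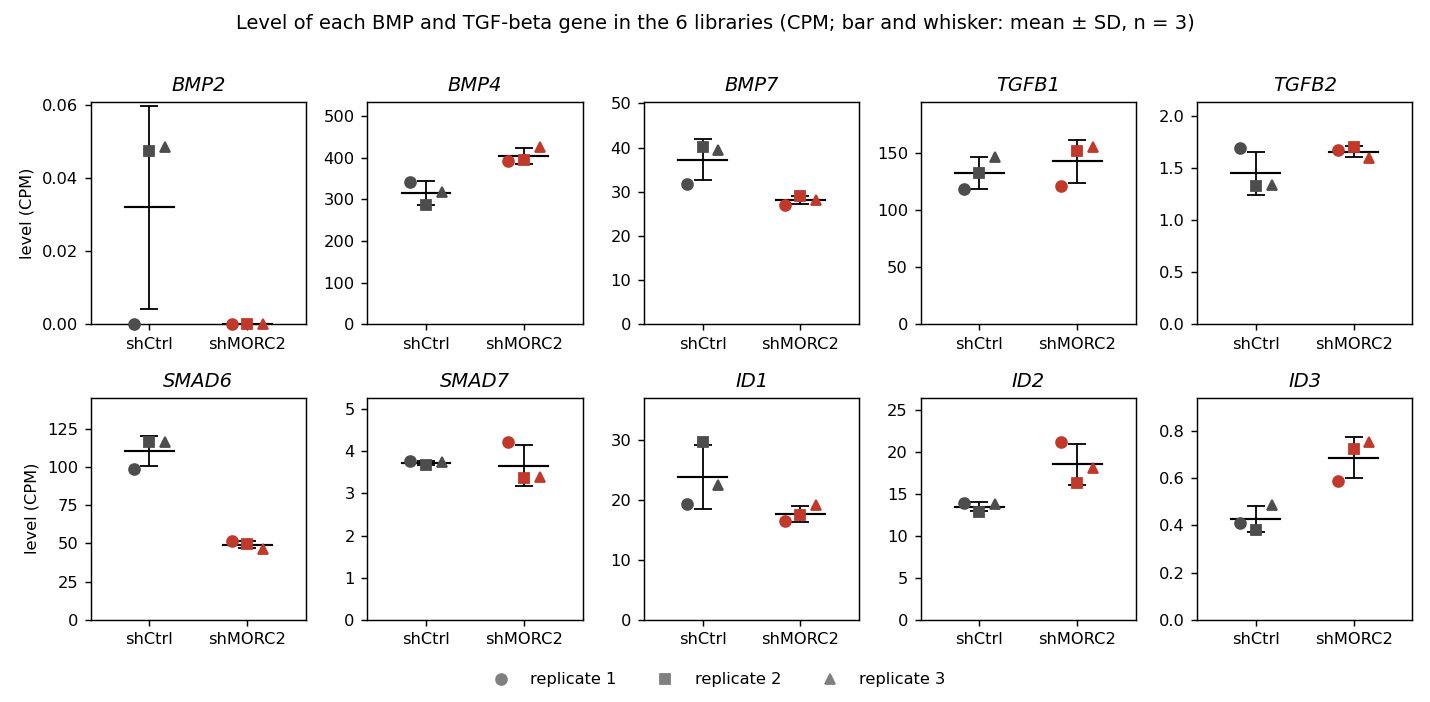
Level of each of the 10 genes in CPM (y axis, linear, from 0) in the 3 shCtrl and 3 shMORC2 libraries, 1 point per library with the shape giving the replicate number; the bar and whisker are the mean and SD. The 3 SMAD6 values in shMORC2 sit between 46.5 and 51.2 CPM, all below the shCtrl values of 98.7 to 116.1 CPM, while the values of SMAD7, TGFB1 and TGFB2 overlap.

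BMP4, a ligand with a broad role in gut patterning and in epithelial differentiation, was the most abundant of the 10 transcripts. It stood at 342, 286 and 317 CPM in shCtrl and at 391, 393 and 426 CPM in shMORC2 (chr14:53949736-53958761, minus strand). All shMORC2 libraries were above all shCtrl libraries. The mean rose from 314.9 ± 27.7 to 403.6 ± 19.8 CPM (SD, n = 3 each), a 1.28-fold increase with a log2 fold change of 0.36 (SE 0.08, 95% interval 0.18 to 0.53, adjusted p in edgeR 0.00378). The log2 ratio within same-numbered libraries was 0.20, 0.46 and 0.43. Of all genes tested, 44.4% changed by at least as much in either direction, while 98.2% had a lower mean RPKM.

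BMP7, a ligand related to BMP5 and BMP6 and best known from kidney and eye development, was lower in shMORC2. The shCtrl libraries held 31.9, 40.2 and 39.5 CPM and the shMORC2 libraries 27.1, 29.0 and 28.2 CPM (chr20:57168748-57266629, minus strand). The groups did not overlap, with shCtrl replicate 1 the nearest to the shMORC2 libraries. The mean fell from 37.2 ± 4.65 to 28.1 ± 0.952 CPM, leaving 75.5% (log2 fold change -0.40, SE 0.10, 95% interval -0.61 to -0.20, adjusted p in edgeR 0.00470). BMP4 and BMP7 thus changed in opposite directions.

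BMP2, a close relative of BMP4, had counts of 0, 2 and 2 in shCtrl and no count in shMORC2 (chr20:6767664-6780280, plus strand). All of these are at or under the floor of 3 counts used here, which corresponds to 0.0676 to 0.0729 CPM depending on the library, so no fold change is given. BMP2 transcripts did not rise above this floor in either group, so no loss in shMORC2 can be read from them. In the unfiltered edgeR fit BMP2 was not called (adjusted p in edgeR 0.328), and floors cover counting error only.

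TGFB1, the main TGF-beta of epithelial and immune tissue, was abundant and did not pass the test. Its levels were 118, 133 and 146 CPM in shCtrl and 121, 152 and 156 CPM in shMORC2 (chr19:41301587-41353911, minus strand). The groups overlapped, and replicate 1 was the lowest of both groups. The log2 fold change was 0.11 (SE 0.10, adjusted p in edgeR 0.433), with a 95% interval of -0.11 to 0.33. HNRNPUL1, an abundant gene on the opposite strand with 17075 to 19241 counts per library, shares 6.6% of the exonic bases of TGFB1.

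TGFB2, a TGF-beta with roles in heart, eye and palate development, was low, at 1.69, 1.32 and 1.34 CPM in shCtrl and 1.67, 1.71 and 1.597 CPM in shMORC2 (chr1:218346235-218444619, plus strand). These are 55 to 74 counts per library. The groups overlapped through shCtrl replicate 1, and the log2 fold change of 0.19 (SE 0.20, 95% interval -0.25 to 0.63) did not pass (adjusted p in edgeR 0.489). The same-strand gene TGFB2-OT1, with 4 to 14 counts, shares 26.6% of the exonic bases of TGFB2.

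SMAD6 changed more than any other of the 9 tested genes. Its levels were 98.7, 116.1 and 116.1 CPM in shCtrl and 51.2, 49.3 and 46.5 CPM in shMORC2 (chr15:66702228-66782848, plus strand). The highest shMORC2 library was far below the lowest shCtrl library. The mean fell from 110.3 ± 10.01 to 49.0 ± 2.39 CPM, so that 44.4% of the control level was left, 2.25-fold lower (log2 fold change -1.17, SE 0.09, 95% interval -1.35 to -0.99, adjusted p in edgeR 7.46e-07). The log2 ratios of same-numbered libraries were -0.95, -1.24 and -1.32. Only 5.94% of all genes tested changed by as much or more. SMAD6 passed in each of 16 alternative analyses, with log2 fold changes from -1.25 to -1.05.

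SMAD7, the other inhibitory SMAD, which recruits ubiquitin ligases to the TGF-beta receptor, showed no detectable difference. It stood at 3.76, 3.67 and 3.74 CPM in shCtrl and at 4.22, 3.36 and 3.38 CPM in shMORC2 (chr18:48919853-48950711, minus strand). The shMORC2 values lay on both sides of the shCtrl values, with a mean of 3.65 ± 0.487 CPM against 3.72 ± 0.0525 CPM in shCtrl (SD, n = 3 each). The fitted difference was -0.027 on the log2 scale (SE 0.15, adjusted p in edgeR 0.905). Its 95% interval of -0.35 to 0.30 does not reach the change of SMAD6. The difference between the changes of the 2 inhibitory SMADs was not tested.

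ID1 was lower in shMORC2 by a margin that rested on single libraries. The shCtrl libraries stood at 19.3, 29.6 and 22.4 CPM and the shMORC2 libraries at 16.5, 17.5 and 19.1 CPM (chr20:31605283-31606515, plus strand). The groups did not overlap, but shCtrl replicate 1 was only just above shMORC2 replicate 3, and shCtrl replicate 2 was well above all others. The mean fell from 23.8 ± 5.28 to 17.7 ± 1.34 CPM, leaving 74.4% (log2 fold change -0.43, SE 0.13, 95% interval -0.71 to -0.14, adjusted p in edgeR 0.0217). Without shCtrl replicate 2 the log2 fold change was -0.24 (adjusted p in edgeR 0.124), and without shMORC2 replicate 2 it was -0.42 (adjusted p in edgeR 0.0697). ID1 passed in 12 of 16 alternatives, over which the adjusted p ran from 0.000382 to 0.145.

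ID2 moved the other way. It stood at 13.9, 12.8 and 13.8 CPM in shCtrl and at 21.2, 16.4 and 18.1 CPM in shMORC2 (chr2:8678845-8684453, plus strand). All shMORC2 libraries were above all shCtrl libraries, with replicate 1 the highest. The mean rose 1.38-fold, from 13.5 ± 0.566 to 18.5 ± 2.44 CPM (log2 fold change 0.46, SE 0.11, 95% interval 0.23 to 0.69, adjusted p in edgeR 0.00417). ID2-AS1 on the opposite strand shares 1.7% of the exonic bases of ID2 and had 5 to 10 counts.

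ID3 was scarce, with counts of 18, 16 and 20 in shCtrl and 26, 30 and 32 in shMORC2 (chr1:23557918-23559794, minus strand). As levels these are 0.411, 0.378 and 0.486 CPM against 0.586, 0.721 and 0.751 CPM, and the groups did not overlap. Non-overlap was common, since 50.2% of all genes tested had groups that did not overlap. The log2 fold change was 0.69 with an SE of 0.32, and the 95% interval ran from 0.0011 to 1.37. After adjustment over all genes ID3 did not pass (adjusted p in edgeR 0.103), nor in any of 13 alternatives, whose adjusted p ran from 0.0712 to 0.256. Of the 9 tested genes, 6 had groups that did not overlap, 3 in each direction.

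**Figure D2:**
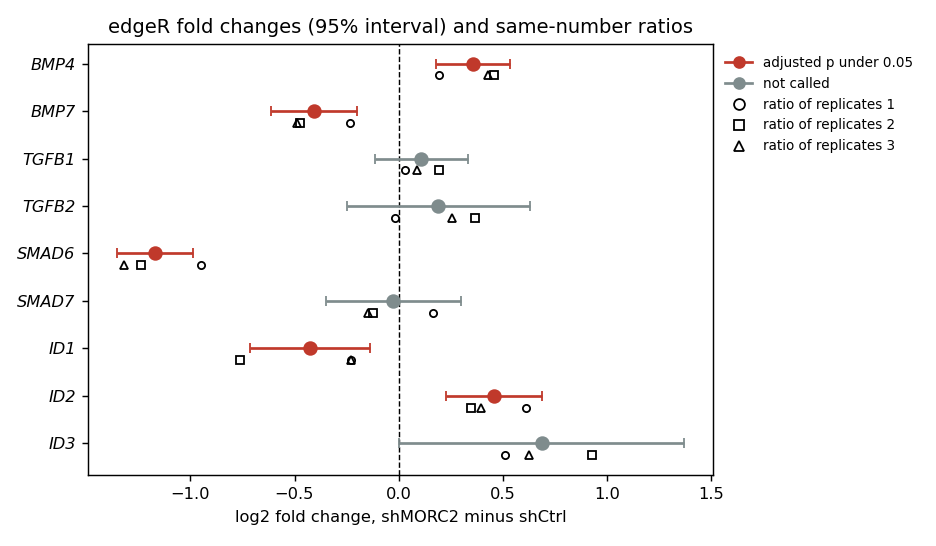
Fitted log2 fold change (x axis, shMORC2 minus shCtrl) of the 9 tested genes with its 95% interval, in red where the adjusted p was under 0.05, and the log2 ratios of same-numbered libraries as open symbols below it. SMAD6 at -1.17 lies farthest from 0, and the intervals of TGFB1, TGFB2 and SMAD7 cross 0.

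Levels between genes can be compared only per length, as RPKM (reads scaled by exon length and library total). In shCtrl the order was BMP4 at 102.4 ± 10.3 RPKM, TGFB1 at 41.0 ± 3.35, ID1 at 19.3 ± 4.25, SMAD6 at 12.9 ± 0.946, BMP7 at 6.87 ± 0.750, ID2 at 6.13 ± 0.302, SMAD7 at 1.01 ± 0.0298, TGFB2 at 0.283 ± 0.0463 and ID3 at 0.237 ± 0.0266 RPKM (SD, n = 3). BMP7 and ID2 overlapped, as did TGFB2 and ID3, and no other neighbours in the order did. In shMORC2 the order was BMP4 at 130.4 ± 5.81 RPKM, TGFB1 at 43.9 ± 4.99, ID1 at 14.3 ± 0.902, ID2 at 8.40 ± 1.29, SMAD6 at 5.71 ± 0.378, BMP7 at 5.17 ± 0.0728, SMAD7 at 0.988 ± 0.154, ID3 at 0.380 ± 0.0416 and TGFB2 at 0.321 ± 0.0128 RPKM. ID2, which was below SMAD6 and overlapped BMP7 in shCtrl, was above both in shMORC2. BMP2 was the lowest in either group.

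**Figure D3:**
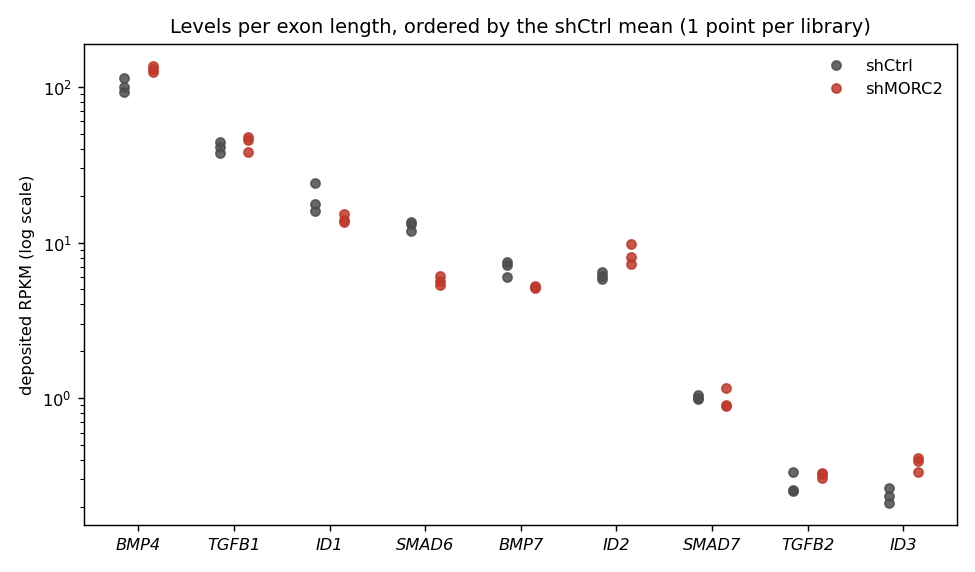
Level per exon length (RPKM, log axis) of the 9 tested genes, ordered by their shCtrl mean, with 1 point per library and the 2 groups side by side. BMP4 and TGFB1 are the highest in both groups, and ID2 lies below SMAD6 in shCtrl and above it in shMORC2.

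The summed level of the 3 ID genes overlapped between the groups, while the shares of ID1 and ID2 in it did not. Their summed RPKM was 22.7, 30.2 and 24.1 in shCtrl and 23.8, 21.6 and 23.8 in shMORC2, and these ranges overlap. ID1 made up 70.6%, 79.9% and 73.6% of the sum in shCtrl and 57.3%, 64.5% and 64.2% in shMORC2. ID2 made up 28.4%, 19.4% and 25.3% in shCtrl and 41.2%, 33.7% and 34.0% in shMORC2. ID3 stayed under 2% of the sum in every library. The share of ID1 was lower in every shMORC2 library than in any shCtrl library, and that of ID2 higher. With ID3 so small these shares mirror each other, so they are not separate observations. They restate the opposite changes of ID1 and ID2. The shares were not tested beyond the tests of the genes themselves.

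The surrounding pathway was read from 95 other genes in 9 roles. Of these, 75 were tested, 14 were called higher and 23 lower in shMORC2 (49.3% called, against 39.5% of all genes tested), and their median log2 fold change was -0.10. The 20 that were not tested had at most 16 counts in any library. By role, 57.1% of tested TGF-beta, activin and nodal ligands were called, 33.3% of BMP and GDF ligands, 40% of receptors and 80% of inhibitors. The share was 57.1% for latency and activation genes and 40% for BMP targets. It was 50% for SMADs, for nuclear and cytoplasmic regulators and for TGF-beta targets. Each role holds few tested genes.

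Of 11 further TGF-beta, activin and nodal ligands 7 were tested, 2 higher and 2 lower, with a median log2 fold change of -0.38. GDF15, a stress-induced member of the family, fell from a mean of 137 to 45.4 CPM (log2 fold change -1.59, SE 0.22, adjusted p in edgeR 0.000116). Its shCtrl libraries were spread from 77.7 to 192 CPM and its shMORC2 libraries from 43.96 to 48.3 CPM. GDF11 rose by 0.54. INHBE, an activin beta subunit, stood at 7.32, 18.9 and 8.53 CPM in shCtrl and at 5.55, 5.43 and 5.28 CPM in shMORC2, so that shCtrl replicate 2 was far above the rest. It fell by 1.10 on the log2 scale, and without shCtrl replicate 2 the log2 fold change was -0.55 (adjusted p in edgeR 0.0102). Its call was lost with limma on log2(RPKM + 1) (log2 fold change -0.71, limma adjusted p 0.0522). INHA, the inhibin alpha subunit, had a log2 fold change of 0.66 (adjusted p in edgeR 0.0415) and passed in 8 of 14 alternatives. Its call was lost with DESeq2 and with edgeR without TMM. It was also lost without shCtrl replicate 3 and without either of shMORC2 replicates 2 and 3, at log2 fold changes of 0.44 to 0.67. Of 10 further BMP and GDF ligands 6 were tested, with 2 higher, none lower and a median of 0.22. BMP6, an iron-regulatory BMP, rose from 1.59 to 3.52 CPM (log2 fold change 1.14, SE 0.18, adjusted p in edgeR 0.000296), and GDF9 rose by 0.45.

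Of 16 receptors and co-receptors 15 were tested, 2 higher and 4 lower, with a median of 0.021. TGFBR2, the type II TGF-beta receptor, fell to 32.8, 30.4 and 28.6 CPM from 55.9, 60.1 and 59.5 CPM in shCtrl. Its log2 fold change was -0.93 (SE 0.08). The co-receptors ENG and RGMB fell by 0.98 and 0.83 and the type II activin receptor ACVR2B by 0.67. The other two called receptors, BMPR1B at 0.58 and RGMA at 0.52, were named after their values were seen. BMPR1B passed in 8 of 14 alternatives. Its call was lost with DESeq2 and without any of shCtrl replicates 2 and 3 and shMORC2 replicates 1 and 2, at log2 fold changes of 0.39 to 0.65 over these 4 fits. Of 12 secreted or membrane inhibitors 5 were tested, 2 higher and 2 lower, with a median of 0.26. SOSTDC1, an antagonist of BMP and WNT signals, rose from 2.95 to 6.51 CPM (log2 fold change 1.14, SE 0.17, adjusted p in edgeR 0.000227), TWSG1 rose by 0.44 and NBL1 fell by 0.42. FSTL3 fell by 0.54, and its call was lost without shCtrl replicate 2 or 3, at -0.50 in both fits, and its log2 fold change was -0.33 without shMORC2 replicate 1.

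All 7 genes of TGF-beta latency and activation were tested, 1 higher and 3 lower, with a median of -0.28. THBS1, a matrix protein that can activate latent TGF-beta, rose from 56.3, 36.2 and 37.0 CPM in shCtrl to 152, 109.8 and 115 CPM in shMORC2 (log2 fold change 1.54, SE 0.16). LTBP4, which tethers latent TGF-beta to the matrix, fell by 0.67, and FURIN, the protease that cleaves the precursors, fell by 0.41. LTBP3 had a log2 fold change of -0.28 with overlapping groups and lost its call without shCtrl replicate 2 or 3 or without shMORC2 replicate 2 or 3, at log2 fold changes of -0.31 to -0.20.

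Among the 6 receptor-regulated and common SMADs, the change was not shared. SMAD1, a BMP SMAD, stood at 13.3, 12.1 and 13.1 CPM in shCtrl and at 20.3, 17.8 and 16.4 CPM in shMORC2, and rose (log2 fold change 0.50, SE 0.10, adjusted p in edgeR 0.00193). SMAD5, of the same branch, stood at 14.4, 14.1 and 12.9 CPM against 10.3, 9.70 and 9.42 CPM, and fell (log2 fold change -0.49, SE 0.10, adjusted p in edgeR 0.00174). SMAD3, of the TGF-beta branch, stood at 48.8, 51.8 and 54.0 CPM against 35.2, 41.8 and 39.5 CPM, and fell (log2 fold change -0.41, SE 0.09, adjusted p in edgeR 0.00211). SMAD2 had a log2 fold change of -0.11 (adjusted p in edgeR 0.339) and SMAD9, at 16 to 34 counts, of 0.12 (adjusted p in edgeR 0.805). SMAD4, the common partner, for which SW480 is known as a deficient line, was scarce in both groups, with counts of 24, 17 and 18 in shCtrl and 12, 27 and 4 in shMORC2. Its log2 fold change of -0.46 had a 95% interval of -1.57 to 0.65 (adjusted p in edgeR 0.511).

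All 12 nuclear and cytoplasmic regulators were tested, 1 higher and 5 lower, with a median of -0.09. The co-repressor SKIL fell from 53.2 to 34.8 CPM (log2 fold change -0.61, SE 0.10, adjusted p in edgeR 0.000492). The SMAD phosphatase PPM1A fell by 0.56, the deubiquitinase USP15 by 0.45 and the ubiquitin ligase NEDD4L by 0.40. PMEPA1, named after its values were seen as the regulator called higher, had a log2 fold change of 0.29 and lost its call without shCtrl replicate 1 and without either of shMORC2 replicates 2 and 3, at log2 fold changes of 0.20 to 0.27.

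Of 8 further BMP targets 5 were tested, none higher and 2 lower, with a median of -0.20. The share called, 40%, was near the 39.5% of all genes tested. MSX1 fell by 0.43 (SE 0.11, adjusted p in edgeR 0.00905). ATOH8 had a log2 fold change of -1.03 (SE 0.35, adjusted p in edgeR 0.0323) and passed in 8 of 13 alternatives. Its call was lost with DESeq2, and without shCtrl replicate 1 or either of shMORC2 replicates 2 and 3 at log2 fold changes of -1.12 to -0.68. Of 13 TGF-beta targets 12 were tested, with 3 higher, 3 lower and a median of -0.15. FN1, a matrix protein, rose from 95.7, 100.2 and 101.1 CPM to 172, 200.4 and 182 CPM (log2 fold change 0.90, SE 0.08). CDKN1A, a cell cycle inhibitor, rose by 0.89 and JUNB, a subunit of AP-1, fell by 1.21 on the log2 scale. COL4A1, a basement membrane collagen at 4 to 37 counts, had a log2 fold change of 1.47 (SE 0.50, adjusted p in edgeR 0.0329) and passed in 7 of 12 alternatives. Its call was lost with DESeq2, and without shCtrl replicate 2 or 3 or shMORC2 replicate 2 at log2 fold changes of 1.01 to 1.59. SNAI2, named after its values were seen, fell by 0.87 on the log2 scale.

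**Figure D4:**
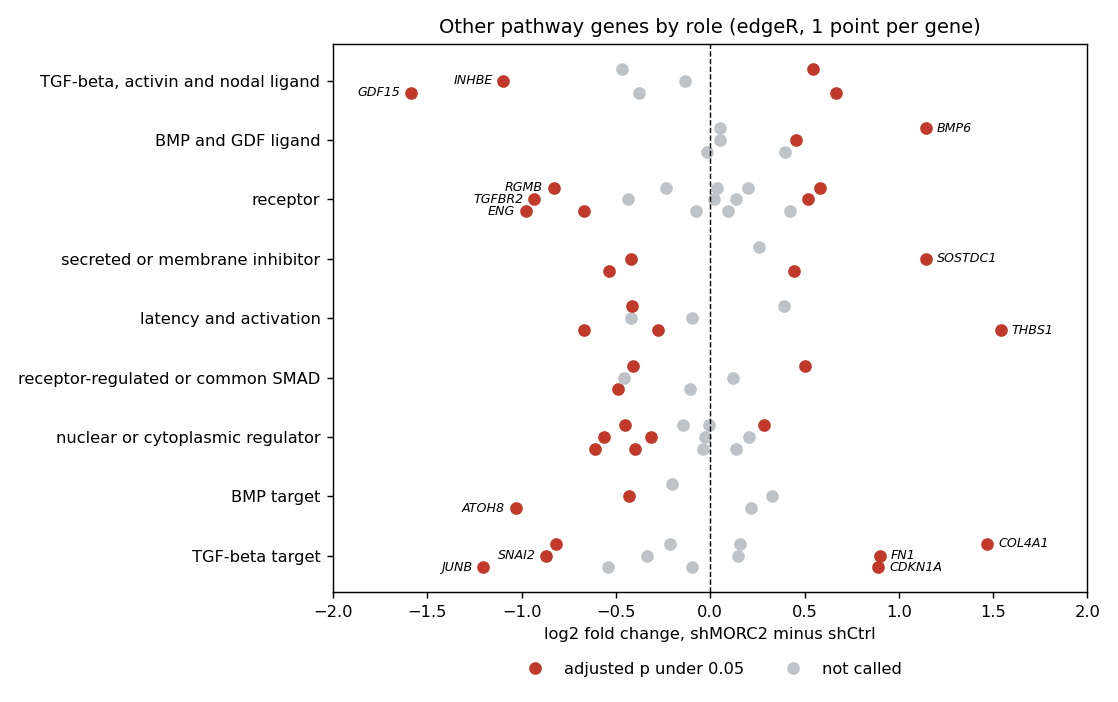
Fitted log2 fold change (x axis, shMORC2 minus shCtrl) of the 75 tested pathway genes outside the 10, in 9 rows by role, 1 point per gene and red where the adjusted p was under 0.05. Genes with large changes are labelled, from GDF15 at -1.59 to THBS1 at 1.54, and each of the 9 rows has points on both sides of 0.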

How the data were processed

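Total RNA of shCtrl and shMORC2 SW480 cells was made into 3 stranded mRNA libraries per group with molecular identifiers, and the authors' processing notes name Trimmomatic 0.36, STAR 2.5.3a, featureCounts of Subread 1.5.1, edgeR 3.12.1 and the build GRCh38. Neither the strand setting nor any collapsing of molecular identifiers is given in the sources used here. The authors deposited a table of raw counts and an RPKM table, both by gene symbol. The deposited RPKM values were the same counts divided by exon length and library total. Of 33621 genes with a single entry in GENCODE v44, 99.86% overlapped that entry, so coordinates were taken as GRCh38. The authors also deposited tables of their own splicing comparison with rMATS, which hold inclusion levels, their differences, p-values and adjusted p-values. They were not used here. The gene tables had 0 columns of other samples.

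The count model was that of edgeR 4.0.16 under R 4.3.3 (filterByExpr, TMM, glmQLFit and glmQLFTest, group as the only term), with Benjamini-Hochberg adjustment over the 21005 genes that passed the filter. An adjusted p under 0.05 is a call. The SE is the size of the log2 fold change divided by the square root of F, and the 95% interval uses the matching t quantile. CPM used TMM-scaled library sizes. Of the 56303 genes 19690 had no count. The totals of 42092664 to 43434425 counts put the floor of 3 counts at 0.0676 to 0.0729 CPM.

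The genes, the pathway list, the marker lists, the motifs and the tests were chosen with earlier results of these data known. The text gives all 10 genes, by rule at most the 4 called genes with the largest change per pathway role, and all 6 receptor-regulated and common SMADs. BMPR1B, RGMA, PMEPA1, SNAI2, MINOS1-NBL1 and the markers CEACAM5, CDX2 and VWF were named outside the rule, after their values were seen. A gene of the pathway list is counted but not reported by name here. For ID1 and SMAD7 it also gives the 3 genes with the most similar profile. Same-numbered libraries deviated together from their group means over the 21005 genes (correlations 0.333, 0.165 and 0.149). On these values alone the numbers were used as pairs in the same-numbered ratios and the replicate block. The main model ignored the numbers, and no label says what they stand for. The alternatives were DESeq2 1.42.0, no TMM, DESeq2 size factors, no filter, a mean of at least 50 counts, a replicate block, limma 3.58.1 on log2(RPKM + 1) and log2(RPKM + 0.1) for a mean RPKM of at least 1, limma without a filter, and leaving out each library. Counts divided by 2 were added after seeing the data. A simulation changed 200 genes, of which 194 were among the 20385 that passed the edgeR filter on the simulated counts. Among changed genes that passed this filter, edgeR recovered 47.6% of those changed by 0.5 on the log2 scale, 78.0% at 1 and 95.8% at 2. Of its 156 calls 11 were false. In the deposited data 8301 of 21005 genes were called, so these figures do not give the recovery or error rate there.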

Additional observations from a re-analysis of the deposited data

How the results depend on the processing

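Of 137 values of the genes under the alternatives, 130 kept their direction and their side of the threshold, 5 kept their direction and lost the call, and 2 changed sign. The sign changes were those of SMAD7, near 0 throughout, whose log2 fold change ran from -0.141 to 0.0314 over the leave-one-out fits and was above 0 without shMORC2 replicate 2 or 3. ID1 lost its call with limma on log2(RPKM + 0.1) at -0.412 (limma adjusted p 0.0505), with unfiltered limma at -0.392 (limma adjusted p 0.145) and without shCtrl or shMORC2 replicate 2, and its leave-one-out values ran from -0.559 to -0.240. ID2 lost its call in unfiltered limma at 0.390 (limma adjusted p 0.0576). That fit, on log2(RPKM + 1) over 36613 genes, left 1 of the 10 genes called higher, 8 pathway genes called higher and 14 lower, and 5454 genes called in all. The cause was not tested. Over the alternatives the number of genes called ran from 5454 to 10287, with 6268 to 8433 when a library was left out. With the replicate number as a block 10287 genes and 44 of the 75 pathway genes were called, 7 of them added (TGFBR3, BAMBI, SMURF2, STRAP, MSX2, CDKN2B and SNAI1), and no call among the 10 genes or the pathway genes was lost. DESeq2 gave no adjusted p for 14909 genes. Depth limits BMP2, ID3, TGFB2, SMAD4 and SMAD9, whose counts are 74 or fewer in every library. It also limits other pathway genes, among them the called genes ATOH8, at 14 to 56 counts, and COL4A1, at 4 to 37 counts.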

Other observations

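The search covered 16614 genes at 1 CPM or more on average. The profile of ID1 over the 6 libraries was most like those of IRF2BP1, CDKN1B and FUT2. Likeness was the root mean square difference of log2 CPM after each gene's mean was subtracted, which was 0.0586, 0.0605 and 0.0639. All 3 were highest in shCtrl replicate 2, as ID1 was. IRF2BP1 stood at 12.2, 17.1 and 14.1 CPM in shCtrl and at 10.9, 10.9 and 11.9 CPM in shMORC2. CDKN1B, a cell cycle inhibitor, stood at 26.2, 37.9 and 31.6 CPM against 20.5, 23.0 and 24.2 CPM. The profile of SMAD7 was most like those of CSNK1G3, RP11-658F2.8 and CUL2, with differences of 0.0283, 0.0293 and 0.0314. In these genes shMORC2 replicate 1 was the highest library, as in SMAD7. With 6 libraries and many genes searched, likeness is a description of these profiles.

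Low counts in the deposited table were even more often than odd. Of counts from 1 to 20, between 65.2% and 68.5% were even in each library, against 49.1% to 51.5% of counts above 1000. The sources used here do not say how a read pair was counted. With the counts divided by 2, each of the 5 called genes among the 10 passed the test, and ID3 did not (log2 fold change 0.68, adjusted p in edgeR 0.0932).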
